A study of Homo sapiens with 6 samples.

Results

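Most of the genes described here build and run the mitotic apparatus of ME-1 cells. ME-1 is a human acute myeloid leukaemia line with inv(16), which makes the fusion protein CBFβ-SMMHC. Selection by name also took in 10 kinesins of transport, cilia and other tasks and NEK1, a kinase of primary cilia and DNA repair. Members were the rows of the deposited table that carry a single symbol beginning with KIF, CENP, BUB, AURK, CCNA or CCNB, or with PLK or NEK and a digit, together with CDK1, TOP2A, CDC20, CDC25B, CDC25C, MKI67, TPX2, UBE2C, NUSAP1, TTK, HMMR, DLGAP5, NUF2 and NDC80. The rule found 56 members among 6339 rows, and 55 of them reached the level needed for a test, a mean of 1 FPKM in at least 1 group. FPKM relates the fragments sequenced from a transcript to its length and to the size of the library. NUSAP1 and DLGAP5 were not analysed here, and no PLK kinase gene is among the members: PLK1S1 was the only symbol of that prefix. A further 3 members are named after a partner and belong to no family of the list, namely AURKAIP1, CCNB1IP1 and PLK1S1.

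AI-10-49 (1 µM) was given to ME-1 cells for 6 h, and control cells received DMSO, the solvent, for as long, in 3 independent experiments per group. The compound binds CBFβ-SMMHC and keeps it from RUNX1. Cells of both groups carry inv(16), and ME-1 is 1 cell line, so the libraries describe that line only. Total RNA was sequenced as paired 90 bp reads.

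In dividing cells, CDK1 with cyclin A or cyclin B drives entry into mitosis, after CDC25 phosphatases remove the phosphates that hold CDK1 inactive. Kinetochores are then assembled on centromeric chromatin and capture spindle microtubules, kinesin motors move and shape the spindle, and checkpoint proteins delay CDC20 and the anaphase-promoting complex until every chromosome is attached. Many of these genes are transcribed mainly in G2 and mitosis, and in leukaemia cells they are read as markers of proliferation.

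The members moved both ways with AI-10-49. Of the 55 tested, 32 fell, 22 rose and 1 did not pass (limma on log2(FPKM + 1), Benjamini-Hochberg adjusted p under 0.05 over all 6230 rows tested). Over the whole table, the share of rows that passed was 95.3%, with 46.2% higher and 49.1% lower, so the shares of members, 40% higher and 58.2% lower, lie near that background. The table holds rows that had already been selected: 4 of the 6230 rows lie within 0.2 of 0 on the log2 scale, and none of the members does. The count of members that passed is therefore a property of the table, and what the members add is their direction and size. The adjusted p values of single genes were computed over these selected rows and take no account of the selection. Their median log2 fold change was -0.33, beside -0.28 over all rows tested, and 29 of the 55 lay below the median of all rows. Leaving out NEK kinases, kinesins of transport and cilia and genes named after a partner gave 38 members. Of these 28 fell and 10 rose, with a median of -0.45, so the pooled shares do not hold for this subset. That split was drawn after the values were seen. Of the 55, 4 passed with a change over 1 on the log2 scale in either direction (CENPB, CENPM, UBE2C and NEK1), against 13.4% of all rows tested. Without AI-10-49 replicate 2 that number was 2 (CENPB and CENPM), against 13.5% of all rows then tested.

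The fallers included the cyclins, CDK1, CDC20, UBE2C, TOP2A, MKI67, TPX2, AURKB and 8 of 9 kinesins of cell division. The risers included all 5 NEK kinases, the checkpoint kinase TTK, the phosphatase CDC25C, the microtubule-binding protein HMMR, the outer kinetochore proteins NDC80 and NUF2, and 4 of 7 inner kinetochore proteins. In a bulk culture, fewer cells in mitosis and less of a transcript per cell cannot be told apart.

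**Figure D1:**
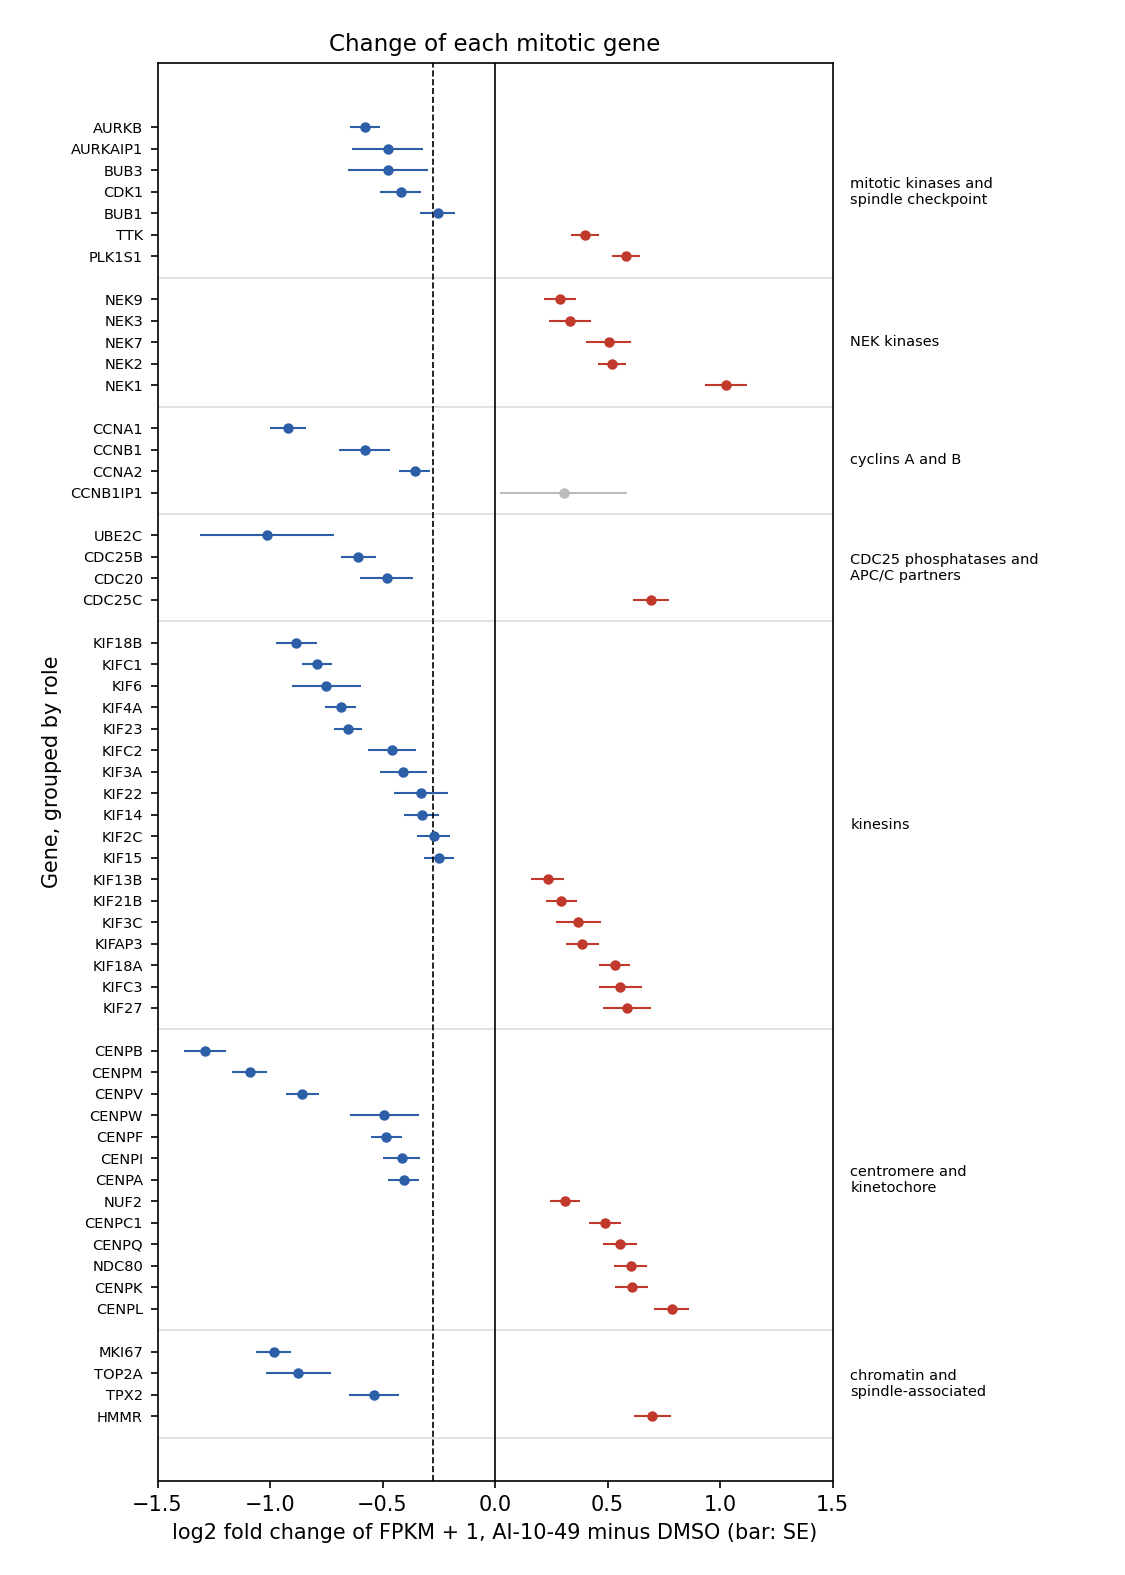
Log2 fold change of FPKM + 1, AI-10-49 minus DMSO (horizontal axis), with its SE (bars) for the 55 members tested, grouped by role; red is higher, blue lower, grey not past the threshold, and the dashed line is the median of all rows tested, -0.28. The 5 NEK kinases all lie to the right of 0, while centromere and kinetochore genes reach from -1.29 for CENPB to 0.78 for CENPL.

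**Figure D2:**
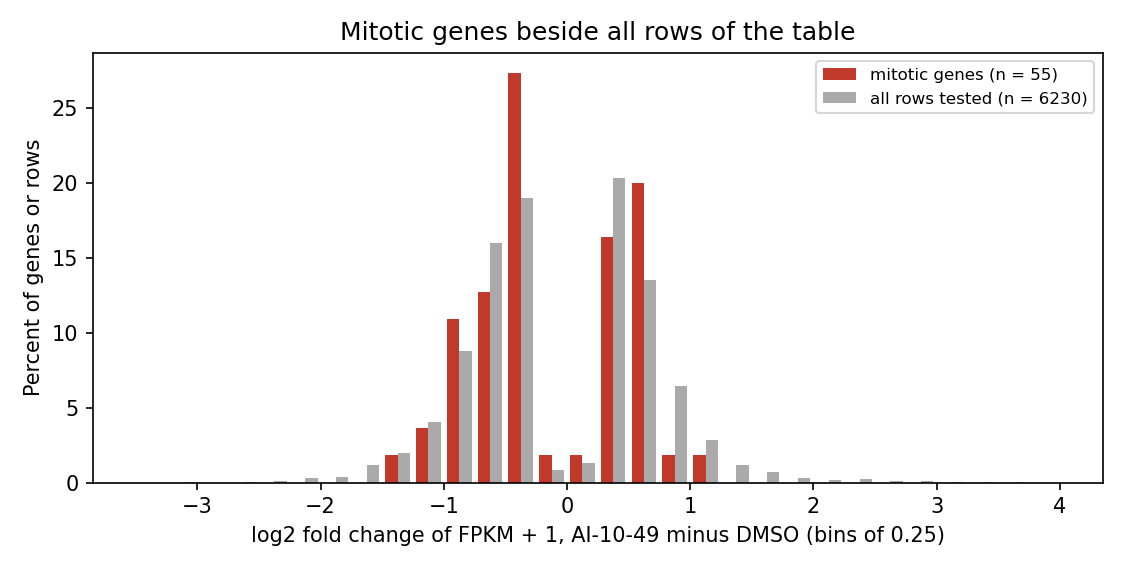
Percent of members (red, n = 55) and of all rows tested (grey, n = 6230) in equal bins of log2 fold change, AI-10-49 minus DMSO. Both have a gap at 0. The members reach from -1.29 to 1.03, and a range over 55 genes cannot be compared with one over 6230 rows.

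Among the libraries, AI-10-49 replicate 2 stood apart. Its highest value was 159 FPKM, against 1717 to 2028 FPKM in the other libraries. In all 294 rows that averaged at least 100 FPKM in AI-10-49 replicates 1 and 3, replicate 2 was the lowest of the 3. It stood there at a median of 50.2% of that mean. The same held for all 12 members of at least 40 FPKM, at a median of 76.3%, while the 44 members below that level stood at a median of 100.2%. Left out, that library moved the log2 change of 3 members by over 1.5 times, CCNB1IP1, BUB3 and CENPW, and all 55 members passed without it, as did 97.4% of all rows then tested. Quantile normalization shifted the median of all rows tested to -0.06 and the changes of 9 members by over 1.5 times, and no call reversed. Of 16 myeloid markers 9 had a row, the highest with DMSO being SPI1 (115 FPKM with AI-10-49 and 154 FPKM with DMSO) and CEBPA (42.1 and 128 FPKM). T cell, B cell, erythroid and megakaryocyte markers with a row read up to 16.4 FPKM with AI-10-49 and 32.2 FPKM with DMSO, both in CD3D. Of the myeloid markers, SPI1, CEBPA, KIT and AZU1 averaged above CD3D in each group, and CD33, ELANE, PRTN3, LYZ and MN1 below it. The part of other lineages in the results was not tested.

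**Figure D3:**
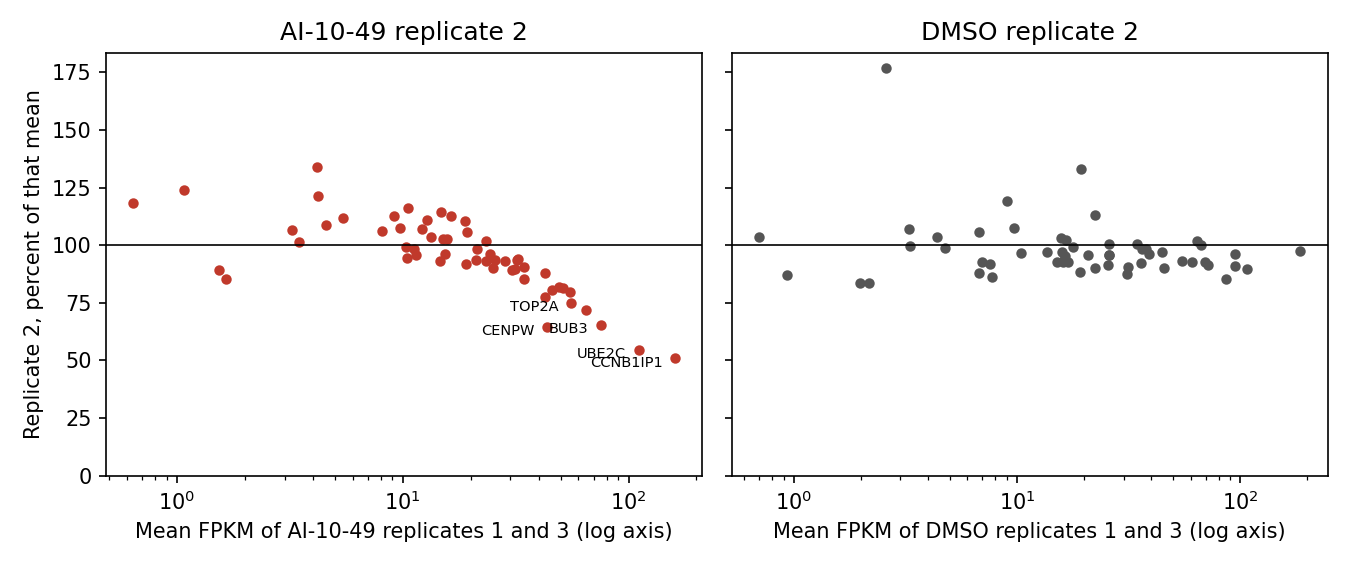
Replicate 2 as a percent of the mean of replicates 1 and 3 (vertical axis) against that mean in FPKM (horizontal log axis), 1 point per member, for AI-10-49 (left) and DMSO (right). With AI-10-49 the points bend down at high levels, to 54.6% for UBE2C and 50.9% for CCNB1IP1.

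Promoter sequence gives a first look at what the members share beyond their names. Genes of late cell cycle are known for a CHR element, bound by complexes of the MuvB core, and for CCAAT boxes, bound by NF-Y. The letters TTTGAA (CHR) and CCAAT were sought on both strands in the 250 bases before and 50 bases after each RefSeq gene start (GRCh38.p14), and 44 of the 56 members matched, 2 of them through an older symbol. Shown are the 110 bases just before the start of 5 genes that hold both motifs, MKI67, KIF4A and KIF23, which fell, and HMMR and KIF18A, which rose. Each is written 5′ to 3′ on the gene's strand, with TTTGAA or TTCAAA and CCAAT or ATTGG in capitals.
MKI67 (chr10:128126424-128126533, minus strand): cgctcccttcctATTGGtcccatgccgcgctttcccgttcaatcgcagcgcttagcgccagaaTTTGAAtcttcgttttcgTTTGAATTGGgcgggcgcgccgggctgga
KIF4A (chrX:70289994-70290103, plus strand): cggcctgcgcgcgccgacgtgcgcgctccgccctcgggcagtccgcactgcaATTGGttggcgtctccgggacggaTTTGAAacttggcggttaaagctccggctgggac
KIF23 (chr15:69414239-69414348, plus strand): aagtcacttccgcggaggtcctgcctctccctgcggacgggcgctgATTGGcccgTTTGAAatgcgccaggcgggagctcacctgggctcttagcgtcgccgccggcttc
HMMR (chr5:163460522-163460631, plus strand): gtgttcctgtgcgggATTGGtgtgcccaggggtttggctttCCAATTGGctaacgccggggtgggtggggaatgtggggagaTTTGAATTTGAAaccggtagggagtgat
KIF18A (chr11:28108157-28108266, minus strand): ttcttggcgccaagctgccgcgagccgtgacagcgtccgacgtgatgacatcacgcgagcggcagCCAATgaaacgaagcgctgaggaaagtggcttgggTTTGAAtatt
In MKI67, a CHR and a CCAAT box overlap by shared letters, and in HMMR a pair of CHR matches stand end to end and CCAATTGG counts as a match on each strand.

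TTTGAA was found in 18 of the 32 members of the division machinery with a promoter (56.2%), against 14.5% of 4328 tested rows that matched a promoter by symbol and 18.2% of 27305 genes in the promoter table. None of the other 12 members, NEK kinases, kinesins of transport and cilia and genes named after a partner, held it; this split follows known roles, was drawn after the values were seen, and leaves NEK2 outside the division machinery although it acts there. CCAAT stood in 24 of the 32 (75.0%), against 44.4% of tested rows and 39.7% of all genes. The motifs occurred among both risers and fallers: TTTGAA was present in 6 of 8 division genes that rose and 12 of 24 that fell, and CCAAT in 6 of 8 and 18 of 24. Both together were present in 4 of 8 and 11 of 24. The E-box CACGTG, the letters that MYC with MAX binds, was found in 2 of 44 members, CCNB1 and CENPF, both of which fell (4.55%, against 14.1% of tested rows and 8.77% of all genes). These are matches of letters, given with no test.

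CDK1, the kinase that starts mitosis, fell to 33.5, 29.3 and 35.2 FPKM in the AI-10-49 libraries, against 44.6, 40.9 and 46.3 FPKM in the DMSO libraries (log2 fold change -0.42 ± 0.09 SE, limma adjusted p = 0.000795). Its libraries did not overlap between the groups. That was so in 54 of the 55 members tested and in 96.2% of all rows tested. For each of those, permuting the group labels over the 6 libraries (exact, two-sided) gives p = 0.1, the smallest p that 3 against 3 allows.

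The 3 cyclins of types A and B, which switch CDK1 on, all fell. CCNB1 had 40.8, 33.2 and 44.6 FPKM with AI-10-49, against 59.8, 56.2 and 61.5 FPKM with DMSO (-0.58 ± 0.11 on the log2 scale, adjusted p = 0.00038). CCNA2, the cyclin A of somatic cells, had 23.1, 23.8 and 23.5 FPKM, against 30.6, 28.4 and 32 FPKM with DMSO (-0.36 ± 0.07, adjusted p = 0.000345). CCNA1, a cyclin A known from testis and from myeloid leukaemia cells, had 22.2, 21.8 and 24.4 FPKM, against 41.5, 43.3 and 47.5 FPKM with DMSO (-0.92 ± 0.08, adjusted p = 3.06e-07). With DMSO CCNA1 stood above CCNA2 in every library, and with AI-10-49 the 2 genes overlapped in level, near 23 FPKM. CCNB1IP1, a ubiquitin ligase named after its binding to cyclin B, was the member that did not pass, at 157, 81.7 and 164 FPKM with AI-10-49 and 103, 96.3 and 112 FPKM with DMSO (0.31, 95% interval -0.31 to 0.92, adjusted p = 0.302). Its AI-10-49 replicate 2 lay below every DMSO library and its other AI-10-49 libraries above them, and without that library it changed by 0.63 (adjusted p = 1.2e-05).

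CDC25 phosphatases split. CDC25B, which acts on CDK1 at the start of mitosis, had 27, 22.7 and 23.4 FPKM with AI-10-49, against 37.5, 37.1 and 38.1 FPKM with DMSO (-0.61 ± 0.08 on the log2 scale, adjusted p = 1.11e-05). CDC25C, a later activator of the same kinase, had 10.9, 12.3 and 10.3 FPKM, against 6.50, 5.97 and 7.07 FPKM with DMSO (0.69 ± 0.08, adjusted p = 4.23e-06). Each AI-10-49 library lay below all DMSO libraries for CDC25B and above them for CDC25C. CDC20, which activates the anaphase-promoting complex, had 52.1, 41.9 and 51 FPKM with AI-10-49, against 67.1, 64.3 and 71.4 FPKM with DMSO (-0.48 ± 0.12, -0.20 under quantile normalization). UBE2C, the ubiquitin-conjugating enzyme of that complex and the most abundant member with DMSO, had 107, 60.6 and 115 FPKM with AI-10-49, against 179, 181 and 193 FPKM with DMSO (-1.01 ± 0.30, adjusted p = 0.00574). The fall of UBE2C was -0.73 without AI-10-49 replicate 2 and -0.50 under quantile normalization, on the same log2 scale.

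**Figure D4:**
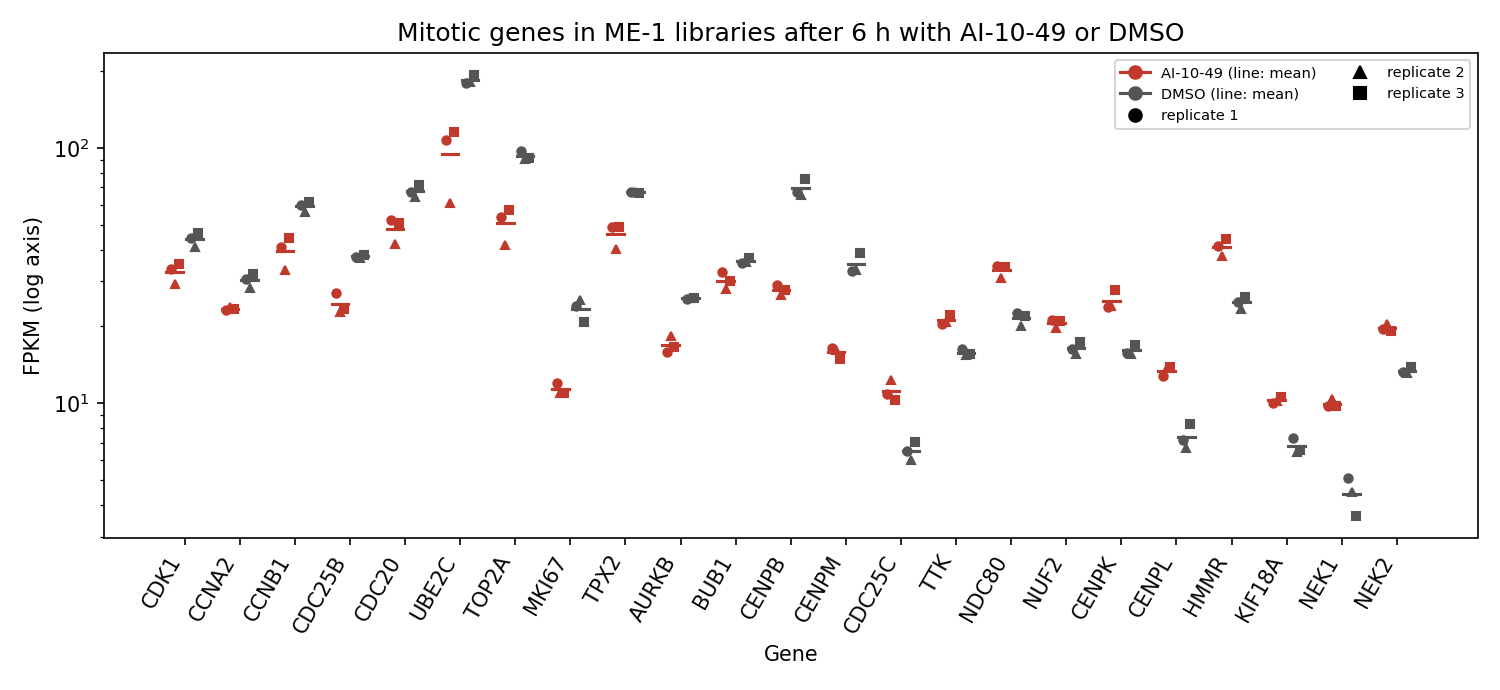
FPKM on a log axis of 23 members in 6 libraries, AI-10-49 in red left of DMSO in grey, with group means as lines and replicates by marker shape. From CDK1 to CENPM the AI-10-49 libraries lie below the DMSO libraries, and from CDC25C to NEK2 above them; UBE2C replicate 2 with AI-10-49 is at 60.6 FPKM, well below 107 and 115 FPKM in the others.

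Of the members that act in or with the spindle checkpoint, AURKB, BUB1 and BUB3 fell and TTK rose. AURKB, the kinase of the chromosomal passenger complex, had 15.9, 18.3 and 16.7 FPKM with AI-10-49, against 25.6, 25.9 and 25.8 FPKM with DMSO (-0.58 ± 0.07 on the log2 scale, adjusted p = 4.44e-06). BUB1, which marks centromeric chromatin and recruits checkpoint proteins, had 32.6, 28.1 and 30.1 FPKM, against 35.5, 35.8 and 37.2 FPKM with DMSO (-0.25 ± 0.08, adjusted p = 0.00745). BUB1 lay just above the signed median of all rows, -0.28, which pools rises and falls. BUB3, the partner that brings BUB1 to kinetochores, had 74.6, 49.5 and 76.7 FPKM with AI-10-49, against 94.7, 86.3 and 94.5 FPKM with DMSO (-0.48 ± 0.18, adjusted p = 0.0214). Without AI-10-49 replicate 2 BUB3 changed by -0.28, under quantile normalization it changed by -0.10 and lost its call (adjusted p = 0.0811), and it also lost it without DMSO replicate 1 or 3. TTK, the kinase that starts checkpoint signalling, was higher, at 20.4, 20.9 and 22.1 FPKM with AI-10-49 and 16.3, 15.5 and 15.5 FPKM with DMSO (0.40 ± 0.06, adjusted p = 5.66e-05). BUB1B shares a row with its neighbour PAK6 and is no member; that row had 15.3, 14.8 and 14.1 FPKM with AI-10-49, against 28.7, 29.2 and 27.6 FPKM with DMSO (-0.91 ± 0.06).

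AURKAIP1, which is named after its binding to Aurora A and is also a protein of the mitochondrial ribosome, had 64.5, 46.7 and 65.2 FPKM with AI-10-49, against 79.2, 73.3 and 92.5 FPKM with DMSO (-0.48 ± 0.16, adjusted p = 0.0115). It changed by -0.14 under quantile normalization, and without DMSO replicate 3 it lost its call (adjusted p = 0.0611). PLK1S1, a centrosome protein that RefSeq now calls KIZ, had 24.1, 23.4 and 24.5 FPKM with AI-10-49, against 15.7, 14.9 and 16.5 FPKM with DMSO (0.58 ± 0.06, adjusted p = 2.43e-06).

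All 5 NEK kinases rose, against 46.2% of all rows called higher. NEK1, a kinase of primary cilia and DNA repair, changed most, at 9.73, 10.4 and 9.73 FPKM with AI-10-49 and 5.10, 4.51 and 3.62 FPKM with DMSO (1.03 ± 0.09 on the log2 scale, adjusted p = 4.79e-07). NEK2, the family member that parts the centrosomes before mitosis, had 19.6, 20.4 and 19.1 FPKM, against 13.3, 13.2 and 13.9 FPKM with DMSO (0.52 ± 0.06, adjusted p = 4.69e-06). NEK9 and NEK7 act in 1 cascade that NEK9 starts, and both rose. NEK7 had 43.5, 37 and 48.3 FPKM with AI-10-49, against 31.1, 27.3 and 31.2 FPKM with DMSO (0.51 ± 0.10, adjusted p = 0.000424), and NEK9 changed by 0.29 ± 0.07. NEK3 had 3.92, 5.13 and 4.53 FPKM with AI-10-49, against 3.49, 3.53 and 3.11 FPKM with DMSO (0.33 ± 0.09, adjusted p = 0.00437). Each NEK gene had its lowest AI-10-49 library above its highest DMSO library, and the gap was narrowest in NEK3.

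Kinesins fell in 11 and rose in 7 of 18 tested. The 9 that work in cell division fell with the exception of KIF18A, and the 9 tested of transport, cilia and other tasks rose in 6 and fell in 3; these subgroups were drawn from known roles after the values were seen. KIF18B, which trims astral microtubules, had 4.97, 4.99 and 4.19 FPKM with AI-10-49, against 9.58, 10.7 and 8.40 FPKM with DMSO (-0.88 ± 0.09 on the log2 scale, adjusted p = 1.45e-06). KIFC1, a minus-end motor that focuses spindle poles, had 15, 13.5 and 14.1 FPKM, against 24.5, 24.6 and 26.9 FPKM with DMSO (-0.79 ± 0.07, adjusted p = 2.47e-07). KIF4A, the chromokinesin of the anaphase midzone, whose promoter window is shown above, had 9.35, 10.2 and 8.85 FPKM, against 16.5, 15.1 and 15.8 FPKM with DMSO (-0.68 ± 0.07, adjusted p = 1.2e-06). In these 3 genes the groups stood well apart. KIF23, the motor subunit of centralspindlin in cytokinesis, changed by -0.65 ± 0.06.

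The other division kinesins changed less. KIF14 (-0.33), of cytokinesis, KIF22 (-0.33), a chromosome-arm motor, KIF2C (-0.27), a microtubule depolymerase, and KIF15 (-0.25), a spindle motor, all passed. Their log2 changes lay near the signed median of all rows, -0.28, which pools rises and falls. KIF2C changed by -0.18 under quantile normalization. KIF22 changed by -0.04 under quantile normalization, where it did not pass (adjusted p = 0.508), nor did it without DMSO replicate 2 or 3. KIF18A, which damps chromosome movement at metaphase and is the closest relative of KIF18B, rose to 10.02, 10.2 and 10.6 FPKM with AI-10-49, against 7.35, 6.46 and 6.59 FPKM with DMSO (0.53 ± 0.07, adjusted p = 1.12e-05). With DMSO KIF18B lay above KIF18A in every experiment, and with AI-10-49 KIF18A lay above KIF18B in every library.

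Outside division, KIF27, a kinesin with relatives that act at cilia, had 1.73, 1.41 and 1.57 FPKM with AI-10-49, against 0.662, 0.722 and 0.734 FPKM with DMSO (0.59 ± 0.11, adjusted p = 0.000193). KIFC3, a minus-end motor of transport and cell adhesion, had 3.36, 3.51 and 3.58 FPKM, against 1.94, 1.82 and 2.41 FPKM with DMSO (0.56 ± 0.09, adjusted p = 0.000118). Both are low genes, whose change the added 1 FPKM understates. KIF27 met the level for a test only with AI-10-49, the group where it was higher. The filter thus favoured its rise, which is counted among the risers. KIFAP3, the non-motor subunit of the kinesin-2 complex, had 19.9, 20.9 and 17.9 FPKM with AI-10-49, against 14.2, 14 and 15.9 FPKM with DMSO (0.39 ± 0.07, adjusted p = 0.000313). Of the kinesin-2 motors that KIFAP3 binds, KIF3C rose (0.37 ± 0.10) and KIF3A fell (-0.41 ± 0.11). KIF6 had 1.70, 1.37 and 1.38 FPKM with AI-10-49, against 2.71, 4.59 and 2.48 FPKM with DMSO (-0.75 ± 0.15, adjusted p = 0.000482), with DMSO replicate 2 well above the other DMSO libraries. KIF21B (0.29) and KIF13B (0.23) rose and KIFC2 (-0.46) fell. KIF1C, a motor of vesicle transport, was below the level for a test, at 0.593, 0.758 and 0.690 FPKM with AI-10-49 and 0.909, 0.813 and 0.954 FPKM with DMSO.

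Centromere and kinetochore genes reached from -1.29 to 0.78 on the log2 scale, with 7 that fell and 6 that rose among 13. Genes of centromeric chromatin all fell. CENPB, which binds a sequence motif in centromeric satellite DNA, had 29.1, 26.4 and 27.7 FPKM with AI-10-49, against 67.1, 65.4 and 75.7 FPKM with DMSO, 2.50-fold lower on the mean FPKM scale (-1.29 ± 0.09 on the log2 scale, adjusted p = 5.57e-08). CENPV, which acts in centromeric heterochromatin, had 19.1, 17.6 and 19.2 FPKM, against 32.2, 34.6 and 36.8 FPKM with DMSO (-0.86 ± 0.07, adjusted p = 2.55e-07). CENPA, the histone H3 variant that marks the centromere, changed less (-0.41 ± 0.07).

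The 7 inner kinetochore genes, whose products sit on CENPA chromatin, divided into 4 that rose and 3 that fell. CENPL had 12.7, 13.7 and 13.8 FPKM with AI-10-49, against 7.21, 6.68 and 8.31 FPKM with DMSO (0.78 ± 0.08, adjusted p = 1.05e-06). CENPK had 23.7, 24.1 and 27.7 FPKM, against 15.8, 15.7 and 17 FPKM with DMSO (0.61 ± 0.07, adjusted p = 5.9e-06). CENPQ had 14.5, 17 and 15.2 FPKM, against 9.68, 10.01 and 11.1 FPKM with DMSO (0.56 ± 0.07, adjusted p = 1.54e-05). In all 3 the lowest AI-10-49 library was above the highest DMSO library. CENPC1, now called CENPC, which links CENPA chromatin to the outer kinetochore, had 30.3, 27.1 and 30.5 FPKM with AI-10-49, against 21.5, 20.01 and 20.2 FPKM with DMSO (0.49 ± 0.07, adjusted p = 2.87e-05).

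Their partners in the same layer fell. CENPM, which binds CENPI, had 16.5, 16.1 and 14.9 FPKM with AI-10-49, against 32.9, 33.2 and 38.8 FPKM with DMSO (-1.09 ± 0.08, adjusted p = 5.32e-08). CENPI changed by -0.42 ± 0.08, although CENPK, a subunit of its own subcomplex, rose. CENPW, a histone-fold protein, had 41.7, 28.2 and 45.7 FPKM with AI-10-49, against 48.9, 51.3 and 61.2 FPKM with DMSO (-0.49 ± 0.15, adjusted p = 0.00822), and -0.29 without AI-10-49 replicate 2, its lowest library.

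In the outer kinetochore, NDC80 and NUF2, which pair to grip the microtubule, rose together. NDC80 had 34.5, 31.1 and 34.2 FPKM with AI-10-49, against 22.6, 20.1 and 22 FPKM with DMSO (0.60 ± 0.07, adjusted p = 6.85e-06). NUF2 had 21.2, 19.7 and 21.1 FPKM, against 16.3, 15.7 and 17.4 FPKM with DMSO (0.31 ± 0.07, adjusted p = 0.000613). The other pair of that 4-protein complex, SPC24 (-0.89 ± 0.10) and SPC25 (-0.74 ± 0.07), fell. CENPF, a large protein of the kinetochore corona, changed by -0.48 ± 0.07.

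Of the genes of chromosomes and spindle, MKI67, whose product Ki-67 coats mitotic chromosomes and is the standard proliferation marker, had 12, 11 and 11 FPKM with AI-10-49, against 24.1, 25.4 and 20.8 FPKM with DMSO (-0.98 ± 0.08 on the log2 scale, adjusted p = 1.3e-07). TOP2A, the topoisomerase that untangles sister chromatids, had 53.7, 41.5 and 57.2 FPKM, against 97.6, 90.8 and 91 FPKM with DMSO (-0.87 ± 0.14, -0.54 under quantile normalization). TPX2, which activates Aurora A on the spindle, had 49.1, 40.1 and 49 FPKM, against 67.3, 67.1 and 66.8 FPKM with DMSO (-0.54 ± 0.11, -0.27 under quantile normalization). These 3 fell in every AI-10-49 library relative to every DMSO library. HMMR, a spindle protein that works with TPX2, stood out in the other direction, at 41.4, 37.6 and 43.9 FPKM with AI-10-49 and 24.9, 23.3 and 26.2 FPKM with DMSO (0.70 ± 0.08, adjusted p = 4.26e-06), although its promoter window above holds the same motifs as that of MKI67.

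Beyond the members, 10 lists of further mitotic genes held 169 symbols, some of them alternative names of the same gene. Of these, 92 had a row of their own, of which 56 fell and 36 rose. The median log2 fold change of the 92 was -0.36, beside -0.28 over all rows tested. The other listed symbols were not analysed, so the counts per list below cover only genes with a row. Of all rows tested 95.3% passed, with 49.1% lower and 46.2% higher, and the counts per list below stand against those shares. Transcription factors of G2 and mitosis fell in 9 and rose in 5 of 14. FOXM1 (-0.93 ± 0.06) and MYBL2 (-0.92 ± 0.07), the activators of late cell cycle genes, fell to about the same extent. FOXM1 averaged 13.2 FPKM with AI-10-49 and 26.0 FPKM with DMSO. E2F8 (-1.60), a repressor of the E2F family, fell most, TFDP1 (-1.07) and E2F5 (-1.04) were lower as well, and the pocket protein genes RBL1 (-0.68) and RBL2 (-0.31) and their partner E2F4 (-0.61; -0.34 under quantile normalization) fell too. Of the MuvB core, the LIN genes on the list that had a row rose, LIN37 by 1.08 ± 0.08, LIN54, whose product binds the CHR, by 0.49, and LIN9 by 0.41. LIN52, also on the list, was not analysed. RBBP4, a core subunit that other chromatin complexes share and that was not on the list and is named after its value was seen, fell to 22.9 FPKM with AI-10-49, against 38.1 FPKM with DMSO (-0.74 ± 0.13, adjusted p = 0.000195). Of the NF-Y subunits NFYC (0.60) and NFYB (0.27) rose and NFYA (-0.29) fell.

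Genes that control mitotic entry and exit included larger changes than that of any member. Of the 16 genes on that list 12 had a row, and 7 of these fell. CDC25A, the third CDC25 phosphatase, changed by -1.97 ± 0.06 and the CDK1-inhibiting kinase WEE1 by -1.37 ± 0.06. Both the activator and the inhibitor were thus lower. The phosphatase 2A subunits PPP2R5C (1.03, 1.31 without AI-10-49 replicate 2) and PPP2R2A (0.61) were the largest of 5 that rose. Kinetochore genes outside the rule fell in 6 and rose in 4 of 10. SPC24 fell, as did STRA13 (-1.48), a symbol that RefSeq lists as an older name of both CENPX and BHLHE40. SKA1 (0.58), which tracks microtubules at kinetochores, and NSL1 (0.51), of the MIS12 complex, rose. MLF1IP, now CENPU, which pairs with CENPQ, rose as CENPQ did (0.43 ± 0.07; named after its value was seen).

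Partners of AURKB in the chromosomal passenger complex fell as AURKB did, INCENP by -0.98 and BIRC5, which encodes survivin, by -0.83. CDCA8 was the last of 3 that fell among 5 genes of that list with a row. The shugoshins, which guard centromeric cohesion, rose, SGOL1 by 0.80 and SGOL2 by 0.31. Cohesin genes split, with 7 that rose and 5 that fell among 12. Of the core genes STAG2 (0.64) and STAG1 (0.60) rose and SMC1A (-0.45) fell, and separase, ESPL1 (-0.71), and securin, PTTG1 (-0.59; -0.25 under quantile normalization), which together release cohesion at anaphase, fell. All 3 condensin genes with a row fell, NCAPD2 (-0.48, -0.18 under quantile normalization), NCAPG2 (-0.40) and NCAPH (-0.40).

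Spindle and cytokinesis genes fell in 11 and rose in 4 of 15, from STMN1 (-1.55; -0.97 under quantile normalization), which destabilises microtubules, and GTSE1 (-1.11) to CLASP1 (0.50) and HAUS2 (0.77), which promote the growth or nucleation of spindle microtubules. Of 3 checkpoint partners TRIP13 (-1.47), which recycles MAD2, and MAD2L1 (-0.56; -0.37 under quantile normalization) fell and ZW10 (0.38) rose. Anaphase-promoting complex genes fell in 5 and rose in 2 of 7, ANAPC11 (-0.79) and ANAPC5 (-0.63; -0.17 under quantile normalization) lower and CDC27 (0.36) and UBE2D1 (0.24) higher. UBE2D1 did not pass without AI-10-49 replicate 2 (adjusted p = 0.0571) or without DMSO replicate 2. Of 11 centriole and centrosome genes 6 rose and 5 fell, among them CEP63 (0.59) and NEDD1 (0.51) higher and TUBG1 (-0.83), which encodes gamma-tubulin, and CETN2 (-0.64) lower.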

How the data were processed

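RNA from 3 AI-10-49 and 3 DMSO cultures of ME-1 was profiled. The authors' deposited values are FPKM, 1 column per library, in a table of selected rows, with a selection rule not given in the sources used here. Per the submitters' processing notes, Bowtie2 2.1.0, Cufflinks 2.2.0, Cuffdiff and the build hg19 were used. Members, lists and subgroups were chosen with earlier results of these data known.

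A count model does not apply to FPKM. With limma 3.58.1 in R 4.3.3, log2(FPKM + 1) was fitted (mean-variance trend, two-sided, Benjamini-Hochberg over 6230 rows, threshold 0.05), AI-10-49 minus DMSO, over rows that averaged at least 1 FPKM in a group, which left out 109. The procedure was tested on simulated normal values in which few rows changed and no library stood apart, unlike in this table. Fold changes on this scale understate low genes. Library depth is unknown: in low rows, ratios between DMSO libraries lay within 0.5% of ratios of small whole numbers in 43.1% to 45.5% of rows, against 41.6% to 42.6% after jitter, so reads could not be recovered. Precision rests on the spread between 3 libraries.

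Named were all members listed by symbol in the rule and all AURK, BUB, PLK, CCNA and CCNB members. The 4 largest changes each way among kinesin, CENP and NEK genes and the members that did not pass were named too. From the pathway lists, up to 2 genes each way per list and all G2/M transcription factors with a row were named. Smaller changes are given as values. The alternatives left out each library, set the threshold at 0.01, took the replicate number as a block, dropped the trend, scaled by medians or quantiles (the last also without AI-10-49 replicate 2), removed the filter or set it at 5 FPKM, and added 0.1 or 0.5 FPKM. Promoters came from RefSeq (GRCh38.p14), another build than the authors', and only for sequence. Python 3.11.15, pandas 2.3.3 and Matplotlib 3.10.9 served for summaries and plots.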

Additional observations from a re-analysis of the deposited data

How the results depend on the processing

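All alternatives were planned. Members called higher numbered 22 or 23 and members called lower 29 to 32 with any single library left out, and 18 to 23 and 29 to 32 under the other settings, where the filter at 5 FPKM tests fewer genes. The median log2 fold change of members, -0.33, was -0.18 under quantile normalization and -0.20 when AI-10-49 replicate 2 was also left out; all rows moved with it, from a median of -0.28 to -0.06 under quantile normalization. At the stricter threshold of 0.01, 22 members were higher and 29 lower. Of 818 values of single members under the other 15 alternatives, all at 0.05, 806 kept direction and side of the threshold, 9 lost the call (in AURKAIP1, BUB3 and KIF22), 3 gained it (in CCNB1IP1) and none reversed. Of 1380 values of the pathway genes, 12 lost the call, in UBE2D1, UBE2S and CKS2, and none reversed. With the replicate number as a block, 6015 rows passed against 5939, and 22 members were higher and 32 lower, as without it. Same-numbered libraries were not treated as pairs. Across genes, r of their deviations from the group mean was -0.15, 0.147 and 0.247. Between AI-10-49 and DMSO libraries of different number, r ran from -0.254 to 0.205. Depth is unknown, so no detection limit is given.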
